A study of Mus musculus with 12 samples.

Results

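A set of 36 autophagy genes was examined in RNA sequencing of mouse splenic T cells with and without Otub1, before and after T cell receptor stimulation. The genes were taken from a list of the machinery by symbol and not by their levels, although the list was chosen with earlier results of these data known. All 36 were found among the 23420 genes counted in the 12 libraries, and 35 of them passed the filter on low counts, as did 12759 genes in all. Wipi1 was the member that did not pass.

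Autophagy delivers cytoplasm and organelles to the lysosome inside a double membrane, the autophagosome. A kinase complex around ULK1 starts the process, a lipid kinase complex marks the site, lipid transfer proteins feed the growing membrane, and ubiquitin-like conjugation attaches ATG8 proteins (LC3 and GABARAP) to it. Receptors then link cargo to the ATG8 proteins. In CD8 T cells autophagy is known for the removal of mitochondria and for the maintenance of activated and memory cells. Messenger RNA levels are not a measure of autophagic flux.

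Each of 4 groups held 3 libraries. Stimulated KO and stimulated WT cells had been cultured for 24 h on anti-CD3 bound to the plate, together with anti-CD28. These antibodies, which stand in for antigen and costimulation, were used at 1 µg/ml each. Fresh KO and fresh WT cells were untreated, so stimulation and culture form 1 factor. The mice were C57BL/6, 6 to 8 weeks old, and both genotypes carried the OT-I transgenic T cell receptor. In KO mice Otub1, which encodes a deubiquitinase, was deleted by CD4-Cre, which acts in developing T cells in general and not in CD8 T cells alone. A genotype tag of the KO samples reads OTUB1-DKO, and no other deleted gene is named. The study's outline names naive CD8 T cells, whereas a cell type tag names splenic dendritic cells. Transcripts of T cells were abundant. Of the 8 genes listed as CD8 T cell markers, 7 were in the files (Cd3e, Cd8a, Lck and others), and most of these are not limited to CD8 T cells. The 7 genes summed to 1594 to 1781 CPM in stimulated KO, 1955 to 2080 CPM in stimulated WT, 5245 to 5521 CPM in fresh KO and 5150 to 5381 CPM in fresh WT. CPM is the count of a gene in 1e+06 counts of its library, scaled by TMM.

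Libraries held 15064488 to 25920035 counts in genes. Otub1 was at 16.2, 13.8 and 14.5 CPM in stimulated KO and 85.7, 100.1 and 96.1 CPM in stimulated WT, and at 25.4, 28.8 and 28.6 CPM in fresh KO and 72.6, 70.8 and 45.1 CPM in fresh WT. Every KO library lay below every WT library of its state, and KO cells kept more of the transcript in the fresh than in the stimulated state (43.9% against 15.8% of WT). Y-linked reads were present in 3 libraries (stimulated KO replicate 3, fresh KO replicate 2 and fresh WT replicate 3), so these groups hold more than 1 animal. The labels do not say that all replicates are separate animals. In the fit of all 12 libraries, p-values rest on the spread between libraries, estimated over the 4 groups together and moderated across genes.

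Per kilobase of exon, the highest of the 36 genes in both states of WT were Gabarap and Sqstm1. Gabarap, a small ATG8 protein, was at 46.9 ± 3.51 CPM per kb in stimulated WT and 57.4 ± 3.55 CPM per kb in fresh WT (mean ± SD, n = 3 each). Sqstm1, the ubiquitin-binding cargo receptor p62, was at 44.9 ± 8.67 CPM per kb in stimulated WT and 54.3 ± 1.36 CPM per kb in fresh WT, differing from Gabarap by less than the SD of Gabarap in both states. The mitophagy receptor gene Bnip3l came next, with 21.6 ± 3.24 CPM per kb in stimulated WT and 41.1 ± 1.24 CPM per kb in fresh WT. The lowest were Atg4c, an ATG8 protease, at 0.384 ± 0.0308 CPM per kb in stimulated WT and 0.531 ± 0.0856 CPM per kb in fresh WT, Optn, a receptor gene, at 0.336 ± 0.0945 CPM per kb in stimulated WT and 0.338 ± 0.0532 CPM per kb in fresh WT, and Wipi1. Wipi1 had 7 to 19 counts per library in stimulated KO, 0 to 3 in stimulated WT, 10 to 11 in fresh KO and 2 to 7 in fresh WT. The median coefficient of variation of the members between replicates was 5.06% in stimulated KO, 5.75% in stimulated WT, 4.63% in fresh KO and 5.00% in fresh WT, against medians over all genes that passed the filter of 7.15%, 6.77%, 6.53% and 6.46% in the same order of groups. The widest spread in stimulated KO was that of Optn (39.8%), and Bnip3l had 34.8% there.

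RefSeq promoters (GRCm38.p6) were available for 29 of the 36 genes, 35 promoters of 300 bases in all. Their median GC content was 59.3%, against 52.7% for all 32851 promoters. CACGTG, the core of the sequence bound by TFEB, the master regulator of lysosome and autophagy genes, was searched with its reverse complement, which is the same word. It occurred in 4 of the 35 promoters (11.4%, Atg7, Atg5, Atg14 and Atg3) and in 7.15% of all promoters. GTAAACA, a core of FOXO sites, was searched on both strands and occurred in 0 of the 35 promoters and in 3.65% of all promoters. A match describes letters in this window and not binding. The last 140 bases before the start are shown 5′ to 3′ for 3 genes that fell with stimulation (Map1lc3b, Atg2a and Calcoco1), for Atg2b, the paralog of Atg2a that rose, and for Atg3 and Atg5, which were not called and carry CACGTG, in capitals. Coordinates are chr8:121590298-121590437, plus strand for Map1lc3b, chr19:6241528-6241667, plus strand for Atg2a, chr15:102722179-102722318, minus strand for Calcoco1, chr12:105685242-105685381, minus strand for Atg2b, chr16:45158689-45158828, plus strand for Atg3 and chr10:44268199-44268338, plus strand for Atg5.
Map1lc3b: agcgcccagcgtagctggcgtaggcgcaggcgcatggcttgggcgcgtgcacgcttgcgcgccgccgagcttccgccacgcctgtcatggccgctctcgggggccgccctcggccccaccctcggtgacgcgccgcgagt
Atg2a: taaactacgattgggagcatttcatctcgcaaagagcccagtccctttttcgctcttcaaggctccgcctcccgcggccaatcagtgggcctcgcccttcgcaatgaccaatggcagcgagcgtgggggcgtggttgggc
Calcoco1: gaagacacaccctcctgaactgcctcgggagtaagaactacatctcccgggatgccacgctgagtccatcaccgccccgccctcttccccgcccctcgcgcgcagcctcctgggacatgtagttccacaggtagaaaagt
Atg2b: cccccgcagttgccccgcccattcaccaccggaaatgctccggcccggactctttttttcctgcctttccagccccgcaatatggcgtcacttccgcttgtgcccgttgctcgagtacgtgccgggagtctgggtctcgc
Atg3: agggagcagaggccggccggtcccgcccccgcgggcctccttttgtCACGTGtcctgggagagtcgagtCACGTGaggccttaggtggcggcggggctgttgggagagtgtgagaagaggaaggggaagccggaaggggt
Atg5: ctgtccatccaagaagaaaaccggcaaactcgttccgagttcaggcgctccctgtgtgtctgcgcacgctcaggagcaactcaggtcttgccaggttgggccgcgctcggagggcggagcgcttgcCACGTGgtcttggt
None of the first 4 stretches holds CACGTG. In Atg3 the word begins 94 and 71 bases before the start, and in Atg5 14 bases before it.

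Most of the autophagy genes fell, relative to other genes, when T cells were stimulated. CPM are shares of a library, and RNA per cell was not measured, so changes in amounts per cell are not known. In KO, 24 of 35 were lower in stimulated than in fresh cells and 4 were higher, and in WT 25 were lower and 3 higher (edgeR adjusted p under 0.05, Benjamini-Hochberg over all genes). The members lower made up 68.6% in KO and 71.4% in WT. Over all genes tested, 42.2% were lower and 41.7% higher in KO, and 41.4% lower and 40.8% higher in WT. The share called in either direction was thus close to that of all genes (80.0% of members in both genotypes, against 83.9% of all genes in KO and 82.3% in WT), while the members' calls lay mostly on 1 side. The median log2 fold change of the 35 was −0.37 in KO and −0.36 in WT, against −0.02 and −0.03 over all genes. Summed over the 36 genes, the level was 1709 to 1831 CPM in stimulated KO and 1705 to 1789 CPM in stimulated WT, below the 2341 to 2374 CPM of fresh KO and the 2382 to 2425 CPM of fresh WT.

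The 24 genes lower in KO were all among the 25 lower in WT, and 3 genes (Atg2b, Wipi2 and Atg4b) were higher in both genotypes. Stimulated and fresh libraries did not overlap for 25 genes that were lower and 4 that were higher in KO, against 84.6% of all genes (42.6% lower and 42% higher). In WT there were 26 lower and 3 higher, against 84.1% of all genes (42.3% lower and 41.8% higher). Called at least 2-fold lower in both genotypes were Atg2a, Atg14, Map1lc3a, Map1lc3b and Tfeb. Not called in either genotype were Becn1, Atg7, Atg10, Atg5, Atg3 and Atg4c. Bnip3l was called lower in WT only and Optn higher in KO only, but the difference between the genotypes did not pass the test for either gene (edgeR adjusted p = 0.118 and 0.228).

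**Figure D1:**
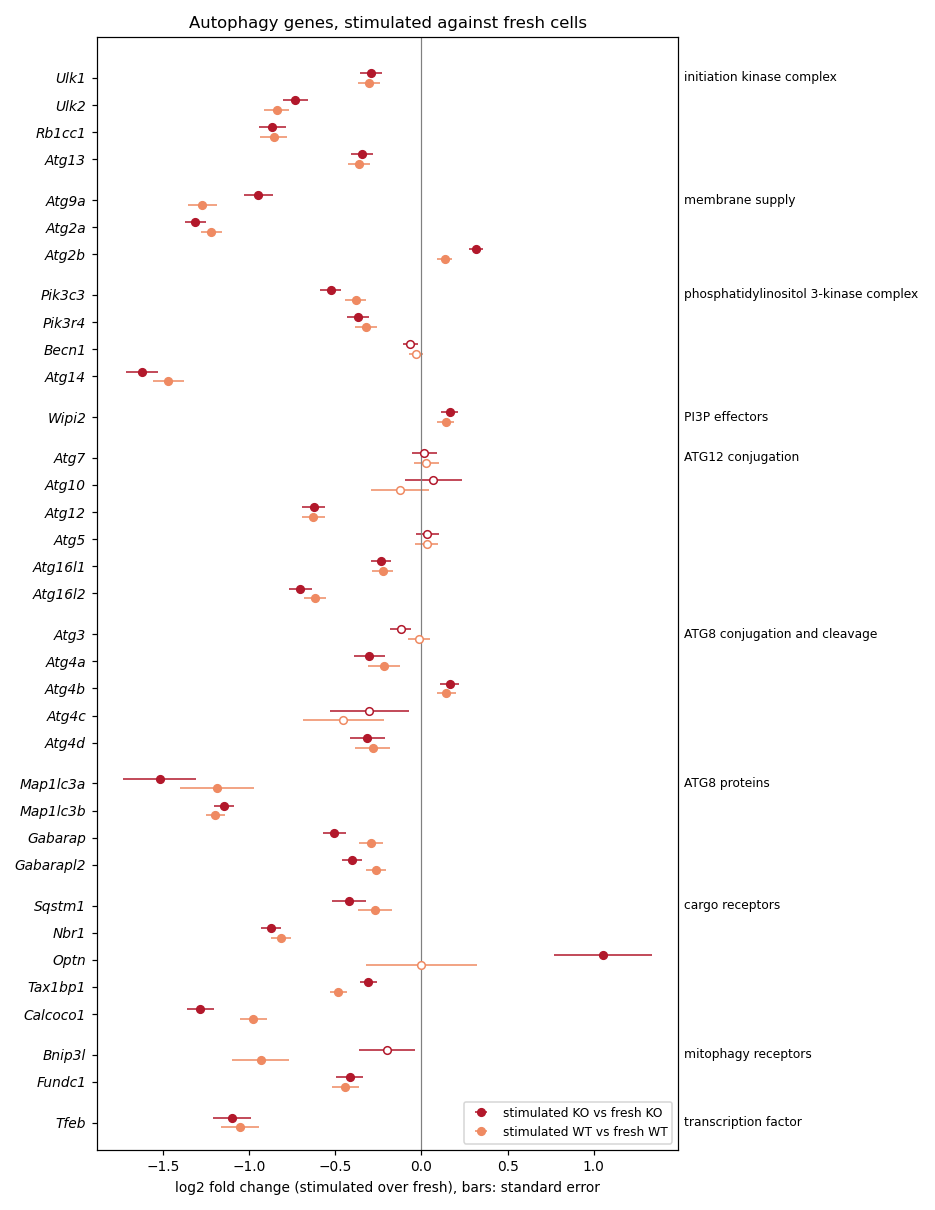
Log2 fold change (x axis) of 35 autophagy genes in stimulated over fresh cells, ordered by role. Points are edgeR estimates for KO (upper, dark red) and WT (lower, orange), bars are the standard error and filled points passed adjusted p under 0.05; most points lie left of 0, Atg14 the farthest (−1.62 in KO and −1.47 in WT), and the 3 genes called higher in both genotypes lie between 0.13 and 0.31.

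Transcripts listed as markers of other cells changed with the state as well. In the same order of groups (stimulated KO, stimulated WT, fresh KO, fresh WT), 14 dendritic cell markers summed to 138.5 to 147.7, 117 to 149.7, 1011 to 1478 and 1246 to 1521 CPM, with Clec10a at 0 in stimulated WT. The 8 B cell markers summed to 21.2 to 28.5, 25.4 to 30.3, 143 to 204 and 141 to 162 CPM, with none at 0. The 10 myeloid markers summed to 1.24 to 1.52, 1.35 to 2.7, 48.5 to 98.5 and 61.9 to 103 CPM, with none at 0. These 3 sums were thus lower after stimulation, but single markers did not all fall. Of the dendritic cell markers 11 fell and 3 rose in KO (Batf3, Zbtb46 and Fscn1), and 11 fell and 1 rose in WT (Batf3). All B cell and myeloid markers fell in both genotypes, as did all 7 CD8 T cell markers. The 6 NK cell markers (Klra8 at 0 in all groups) summed to 2.28 to 2.63, 2.26 to 3.62, 9.78 to 19.1 and 12.9 to 14.3 CPM. The 10 erythroid markers summed to at most 5.28 CPM in any library. Of these, 4 globin genes were at 0 in all groups, and whether their reads were lost in counting was not tested. The part of the listed cell types in the changes of the autophagy genes was not tested. Fewer cells of a type and less RNA per cell cannot be told apart in bulk samples.

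All 4 genes of the initiation kinase complex fell. Ulk1 and Ulk2 encode the paired kinases, Rb1cc1 the large scaffold FIP200 and Atg13 the adaptor between them. Rb1cc1 was at 47.3, 53.1 and 42.4 CPM in stimulated KO and 87.9, 81.7 and 89.9 CPM in fresh KO. WT cells held 50.8, 46.6 and 50.5 CPM in stimulated and 95, 83.0 and 90.3 CPM in fresh libraries. Stimulated cells held 55.0% of the fresh level in KO and 55.1% in WT, with no overlap (KO log2 fold change −0.86, SE 0.08, edgeR adjusted p = 3.02e-08; WT log2 fold change −0.86, SE 0.08, edgeR adjusted p = 3.81e-08). Ulk2 was at 34.8, 43.2 and 34.7 CPM in stimulated KO and 62.1, 62.9 and 61.7 CPM in fresh KO. Its stimulated WT libraries held 37.3, 38.2 and 37.9 CPM and its fresh WT libraries 66.9, 66.9 and 69.2 CPM (log2 fold change −0.73 in KO and −0.84 in WT). The falls of Ulk1 (−0.29 in KO and −0.31 in WT) and Atg13 (−0.35 in KO and −0.36 in WT, log2 scale) were smaller, with edgeR adjusted p of at most 0.000621.

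The membrane supply genes moved in opposite directions. ATG9A is a lipid scramblase in the vesicles that seed the membrane, and ATG2A and ATG2B are paralogous lipid transfer proteins that work with it. Atg2a was at 63.0, 55.3 and 64.8 CPM in stimulated KO and 151, 156 and 149 CPM in fresh KO. The WT libraries held 60.5, 61.8 and 65.2 CPM in stimulated and 155, 146 and 136 CPM in fresh libraries. Stimulated cells held 40.2% of the fresh level in KO and 42.9% in WT, without overlap (KO log2 fold change −1.31, SE 0.06, edgeR adjusted p = 1.02e-11; WT log2 fold change −1.22, SE 0.06, edgeR adjusted p = 3.12e-11). Atg2b was at 157, 165 and 167 CPM in stimulated KO and 134, 131 and 128 CPM in fresh KO. The corresponding WT values were 155, 150.3 and 151 CPM in stimulated and 141, 141 and 134 CPM in fresh libraries. The rise was small and again without overlap (KO log2 fold change 0.31, SE 0.04, edgeR adjusted p = 3e-06; WT log2 fold change 0.13, SE 0.04, edgeR adjusted p = 0.00726), although the WT value was 0.11 once libraries with Y-linked reads were left out (edgeR adjusted p = 0.0552, against 0.00434 to 0.0552 over 12 alternatives). Per kilobase, Atg2b stood above Atg2a in stimulated WT (11.3 ± 0.174 against 8.12 ± 0.319 CPM per kb) and below it in fresh WT (10.3 ± 0.281 against 18.9 ± 1.24 CPM per kb).

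Atg9a was at 20.7, 19.8 and 21.0 CPM in stimulated KO and 40.3, 41.2 and 37.2 CPM in fresh KO. In WT it was at 19.7, 17.6 and 16.3 CPM in stimulated and 45.9, 44.7 and 38.2 CPM in fresh libraries, and stimulated and fresh libraries did not overlap (KO log2 fold change −0.95, SE 0.08, edgeR adjusted p = 2.83e-08; WT log2 fold change −1.27, SE 0.09, edgeR adjusted p = 1e-09). Of its exon bases 32.6% overlap other genes, most of them on the same strand, so some of its reads may have been lost in counting.

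In the phosphatidylinositol 3-kinase complex 3 genes fell and Becn1 was not called. Atg14, the subunit that sends the complex to autophagosome sites, was at 7.97, 8.16 and 8.13 CPM in stimulated KO and 26.7, 22.5 and 25.5 CPM in fresh KO. Its stimulated WT libraries held 9.62, 8.67 and 10.4 CPM and its fresh WT libraries 27.8, 26 and 25.9 CPM. Stimulated cells held 32.5% of the fresh level in KO and 36.1% in WT, the lowest shares of the 35 genes tested (KO log2 fold change −1.62, SE 0.09, edgeR adjusted p = 1.06e-10; WT log2 fold change −1.47, SE 0.09, edgeR adjusted p = 3.78e-10). Becn1, which encodes the scaffold subunit Beclin 1, was at 118, 114 and 117 CPM in stimulated KO and 123, 123 and 117 CPM in fresh KO. WT cells held 116, 122 and 119.6 CPM in stimulated and 119.6, 120.4 and 126 CPM in fresh libraries, and the ranges overlapped in both genotypes. Its difference had a 95% interval of −0.15 to 0.02 in KO and −0.12 to 0.06 in WT on the log2 scale, although 43.9% of its exon bases overlap Cntd1 on the other strand. Pik3c3, the lipid kinase VPS34, and Pik3r4, its regulatory subunit VPS15, fell by less. Their log2 fold changes were −0.53 in KO and −0.38 in WT for Pik3c3, and −0.37 in KO and −0.32 in WT for Pik3r4 (edgeR adjusted p of at most 0.000273). WIPI proteins bind the lipid that this complex makes. Wipi2, the effector that brings in ATG16L1, was at 71.6, 74.2 and 75.6 CPM in stimulated KO and 63.1, 67.1 and 67.3 CPM in fresh KO, and at 73.6, 79.7 and 77.2 CPM in stimulated WT and 71.9, 70 and 67.3 CPM in fresh WT. It was slightly higher after stimulation (KO log2 fold change 0.16, SE 0.05, edgeR adjusted p = 0.00706, and WT log2 fold change 0.14, SE 0.05, edgeR adjusted p = 0.0188). In WT this call was lost without fresh WT replicate 3 (adjusted p = 0.0786 by edgeR) or without stimulated WT replicate 2 (adjusted p = 0.0735 by edgeR). It was also lost without the libraries with Y-linked reads (adjusted p = 0.0996 by edgeR), with 0.00861 to 0.0996 over 12 alternatives.

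**Figure D2:**
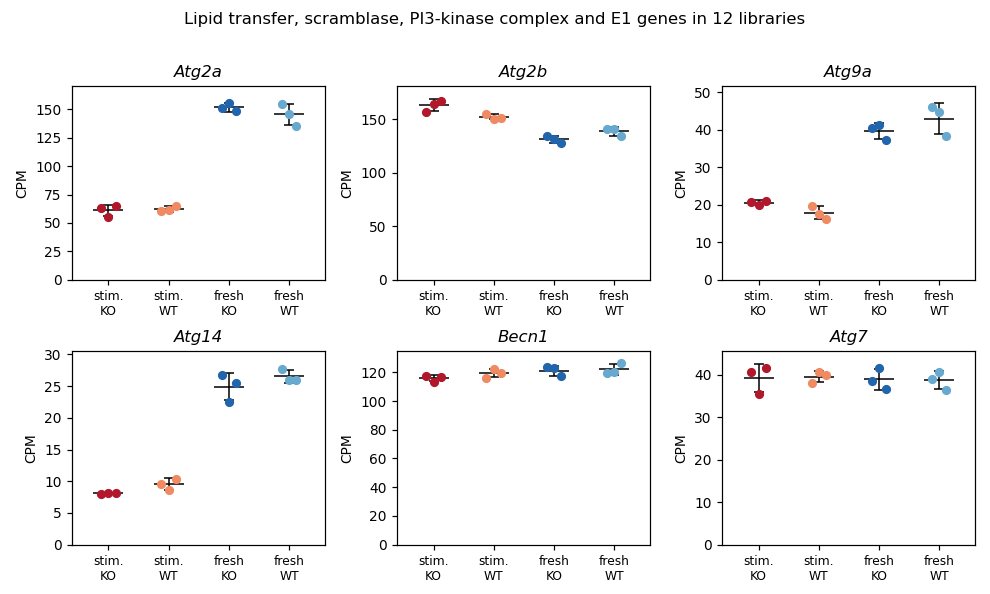
CPM (y axis, from 0) of 6 genes of membrane supply, lipid kinase and conjugation in the 4 groups. Points are libraries, and bars are the mean ± SD (n = 3); Atg2a, Atg9a and Atg14 are low in all 6 stimulated libraries, Atg2b is slightly higher there, and Becn1 and Atg7 overlap.

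Of the conjugation genes, those of the enzymes (Atg7, Atg10 and Atg3) and Atg5 were not called, whereas Atg12 fell. ATG7 activates both ATG12 and the ATG8 proteins, ATG10 passes ATG12 to ATG5, and ATG3 passes ATG8 proteins to the lipid. Atg7 was at 40.8, 35.6 and 41.7 CPM in stimulated KO and 38.6, 41.6 and 36.8 CPM in fresh KO. The corresponding WT values were 38.2, 40.6 and 40.0 CPM in stimulated and 39.1, 40.8 and 36.6 CPM in fresh libraries. The groups overlapped and the 95% interval of the log2 fold change was −0.14 to 0.17 in KO and −0.13 to 0.19 in WT. Atg5 was at 36.6 ± 0.940 CPM in stimulated KO and 35.8 ± 1.49 CPM in fresh KO, and at 38.0 ± 2.48 CPM in stimulated WT and 37.2 ± 2.23 CPM in fresh WT (mean ± SD, n = 3 each), with intervals of −0.11 to 0.18 in KO and −0.11 to 0.17 in WT. Atg3 was at 43.8 ± 0.574 and 47.6 ± 2.08 CPM in stimulated and fresh KO, and at 44.8 ± 2.01 and 45.3 ± 2.45 CPM in stimulated and fresh WT. Its stimulated and fresh libraries did not overlap in KO, with an interval of −0.25 to 0.01 (edgeR adjusted p = 0.0798), and it was called lower there without fresh KO replicate 2 (−0.15, edgeR adjusted p = 0.0445). In WT its libraries overlapped, with an interval of −0.15 to 0.12. These 3 genes are among the 4 whose promoters hold CACGTG. Atg14, the fourth, fell. Atg10, with at most 113 counts per library, had wider intervals (−0.28 to 0.42 in KO and −0.48 to 0.23 in WT).

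Atg12, the ubiquitin-like protein joined to ATG5, was at 30.6, 33.8 and 31.9 CPM in stimulated KO and 50.6, 50.1 and 47.8 CPM in fresh KO. The WT libraries held 32.0, 31.9 and 36 CPM in stimulated and 52.0, 49.8 and 52.7 CPM in fresh libraries. No stimulated library reached the fresh range (KO log2 fold change −0.63, SE 0.07, edgeR adjusted p = 2.22e-07; WT log2 fold change −0.63, SE 0.07, edgeR adjusted p = 2.43e-07). Atg16l1, the partner that anchors the ATG12 and ATG5 conjugate, fell, with log2 fold changes of −0.23 in KO and −0.22 in WT. Those of its paralog Atg16l2, which fell as well, were −0.70 in KO and −0.62 in WT. The difference between the paralogs was not tested.

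The 4 ATG4 proteases prepare ATG8 proteins for conjugation and release them again. Atg4b, which encodes the most broadly active of them, was at 51.7, 52.4 and 51.7 CPM in stimulated KO and 46.9, 46.6 and 45.5 CPM in fresh KO. Its stimulated WT libraries held 48.7, 50.7 and 53.7 CPM and its fresh WT libraries 47.7, 45.3 and 45.5 CPM. All stimulated libraries were above all fresh ones by a small step (KO log2 fold change 0.16, SE 0.05, edgeR adjusted p = 0.0114, and WT log2 fold change 0.14, SE 0.06, edgeR adjusted p = 0.0252). The WT call was lost without stimulated WT replicate 3, fresh WT replicate 2 or fresh WT replicate 3 (adjusted p 0.0102 to 0.106 over 12 alternatives). It was also lost without the libraries with Y-linked reads (edgeR adjusted p = 0.0756). Atg4a (−0.30 in KO and −0.22 in WT) and Atg4d (−0.31 in KO and −0.28 in WT, log2 scale) were lower. The WT call of Atg4a had an edgeR adjusted p of 0.0388 and was lost under 7 of 12 alternatives, and its reads can be shared with the near-identical copy Atg4a-ps. Of the exon bases of Atg4d, 19.3% overlap Kri1. Atg4c, with 22 to 39 counts per library, was not called (−0.30 in KO and −0.45 in WT).

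All 4 ATG8 genes on the list fell. Map1lc3b, the LC3 protein most used to mark autophagosomes, was at 50.4, 52.4 and 57.6 CPM in stimulated KO and 119.5, 124 and 111 CPM in fresh KO. In WT it was at 57.5, 61.8 and 59.1 CPM in stimulated and 141, 134 and 134 CPM in fresh libraries. Stimulated cells held 45.2% of the fresh level in KO and 43.6% in WT, and no stimulated library came near the fresh range (KO log2 fold change −1.15, SE 0.06, edgeR adjusted p = 2.02e-11; WT log2 fold change −1.20, SE 0.06, edgeR adjusted p = 1.42e-11). Map1lc3a was at 1.51, 1.41 and 0.904 CPM in stimulated KO and 3.69, 3.85 and 3.45 CPM in fresh KO. Its stimulated WT libraries held 1.00, 1.64 and 1.66 CPM and its fresh WT libraries 3.34, 3.10 and 3.46 CPM. The counts behind these values were 20 to 85 per library, and the fall had a wider error (KO log2 fold change −1.52, SE 0.21, edgeR adjusted p = 6.23e-06; WT log2 fold change −1.19, SE 0.22, edgeR adjusted p = 0.000103).

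Gabarap was at 72.3, 75 and 78.4 CPM in stimulated KO and 105, 99.4 and 116 CPM in fresh KO. The corresponding WT values were 79.2, 88.2 and 91.8 CPM in stimulated and 98.4, 109 and 110.1 CPM in fresh libraries, and the fall was smaller than 2-fold in both genotypes (KO log2 fold change −0.51, SE 0.07, edgeR adjusted p = 4.32e-06; WT log2 fold change −0.29, SE 0.07, edgeR adjusted p = 0.000947). Gabarapl2 fell too (log2 fold change −0.40 in KO and −0.26 in WT), and its reads can be shared with 3 near-identical processed pseudogenes. In contrast, Gabarapl1, a further ATG8 gene outside the 36, was at 51.1, 52.4 and 53.4 CPM in stimulated KO and 8.05, 8.74 and 7.14 CPM in fresh KO. WT cells held 45.8, 45.5 and 45.7 CPM in stimulated and 7.53, 7.61 and 8.06 CPM in fresh libraries. Its stimulated level was 655% of the fresh level in KO and 591% in WT (KO log2 fold change 2.71, SE 0.07, edgeR adjusted p = 1.69e-14; WT log2 fold change 2.56, SE 0.08, edgeR adjusted p = 5.39e-14), and 28.3% of its exon bases overlap a gene on the other strand.

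**Figure D3:**
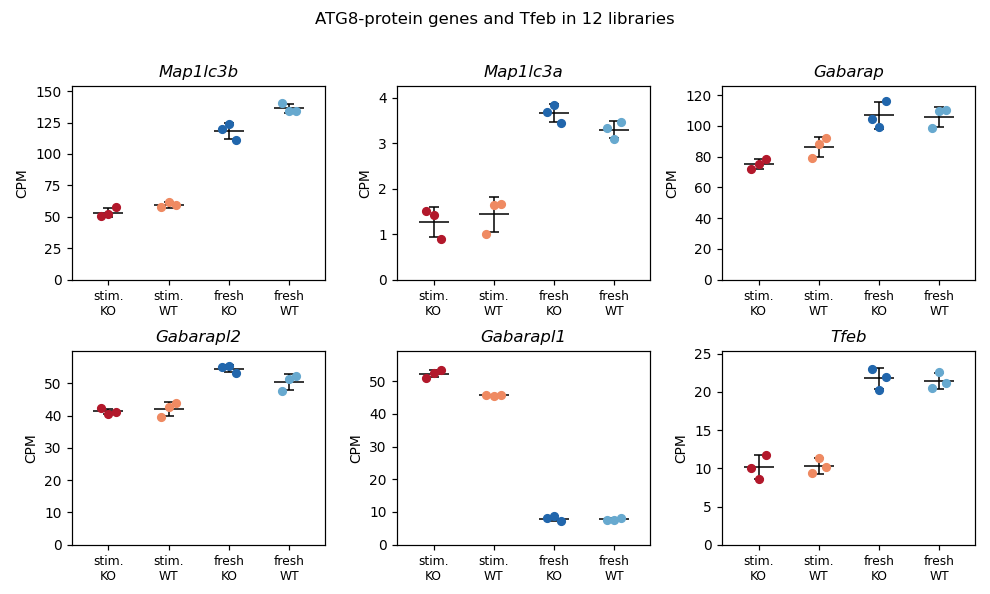
CPM (y axis, from 0) of 5 ATG8 genes and Tfeb in the 4 groups. Points are libraries, and bars are the mean ± SD (n = 3); Map1lc3b, Map1lc3a and Tfeb are at 34.8% to 48.2% of the fresh level in stimulated cells, Gabarap and Gabarapl2 at 70.4% to 83.3%, and Gabarapl1 is at 45.5 to 53.4 CPM in the 6 stimulated and 7.14 to 8.74 CPM in the 6 fresh libraries.

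Of the 5 cargo receptor genes, Sqstm1, Nbr1, Tax1bp1 and Calcoco1 fell in both genotypes. Sqstm1 was at 134, 152 and 147 CPM in stimulated KO and 189.7, 190.4 and 198 CPM in fresh KO. The WT libraries held 117, 164 and 171 CPM in stimulated and 179, 180.4 and 187 CPM in fresh libraries. Stimulated WT replicate 1 was lower than the other stimulated libraries (KO log2 fold change −0.42, SE 0.10, edgeR adjusted p = 0.000995, and WT log2 fold change −0.27, SE 0.10, edgeR adjusted p = 0.019). Without that library the WT difference was −0.12 (edgeR adjusted p = 0.0619, against 0.00371 to 0.0658 over 12 alternatives). The WT call of Sqstm1 was also lost without fresh WT replicate 3 (edgeR adjusted p = 0.0553) or the libraries with Y-linked reads (edgeR adjusted p = 0.0658). Of the exon bases of Sqstm1, 17.3% overlap Mrnip on the other strand. Nbr1, a receptor that works with p62, was at 66.3, 75.8 and 70.1 CPM in stimulated KO and 133, 123 and 133 CPM in fresh KO. Its stimulated WT libraries held 72.3, 70.8 and 72.9 CPM and its fresh WT libraries 136, 122 and 123 CPM, well apart (KO log2 fold change −0.87, SE 0.06, edgeR adjusted p = 6.5e-10; WT log2 fold change −0.82, SE 0.06, edgeR adjusted p = 1.82e-09). Tax1bp1, a ubiquitin-binding receptor that also restrains inflammatory signalling, had log2 fold changes of −0.31 in KO and −0.48 in WT. Those of Calcoco1 were −1.28 in KO and −0.97 in WT (edgeR adjusted p of at most 6.24e-09). Among the mitophagy receptors, Fundc1, a receptor in the outer mitochondrial membrane, fell (log2 fold change −0.42 in KO and −0.44 in WT).

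Tfeb was at 10.1, 8.58 and 11.7 CPM in stimulated KO and 23.1, 20.3 and 22.0 CPM in fresh KO. The corresponding WT values were 9.37, 11.4 and 10.2 CPM in stimulated and 20.5, 22.6 and 21.2 CPM in fresh libraries. Stimulated cells held 46.5% of the fresh level in KO and 48.2% in WT, with no overlap (KO log2 fold change −1.10, SE 0.11, edgeR adjusted p = 1.19e-07; WT log2 fold change −1.05, SE 0.11, edgeR adjusted p = 2.44e-07). Other transcription factors tied to autophagy genes moved in both directions, as all genes did. Of 11, 5 rose and 6 fell in KO, and 5 rose and 4 fell in WT. Over all genes tested, 41.7% were higher and 42.2% lower in KO, and 40.8% were higher and 41.4% lower in WT. Foxo1, which drives quiescence and autophagy genes, was at 125, 127 and 116 CPM in stimulated KO and 328, 324 and 307 CPM in fresh KO, and at 133, 125 and 124 CPM in stimulated WT and 314, 293 and 322 CPM in fresh WT. Its log2 fold change was −1.38 in KO and −1.29 in WT, with no overlap. Atf4, the factor of the amino acid response, rose (log2 fold change 1.51 in KO and 1.33 in WT), as did Hif1a, the oxygen-regulated factor (1.72 in KO and 1.45 in WT; edgeR adjusted p of at most 3.37e-09 for the 3 genes).

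Loss of Otub1 in fresh cells was compared next. None of the 35 autophagy genes was called by edgeR in fresh KO against fresh WT, where 1.2% of all genes were (0.98% higher and 0.219% lower). DESeq2 and limma-voom called 0 as well. At an unadjusted p under 0.05 in edgeR, for which the share of all genes was not counted, there were 0 higher and 1 lower. That gene was Map1lc3b, at 119.5, 124 and 111 CPM in fresh KO and 141, 134 and 134 CPM in fresh WT, without overlap (log2 fold change −0.20, SE 0.05, edgeR adjusted p = 0.0899). Log2 fold changes of the 35 ran from −0.20 to 0.15 with a median of −0.01. The 95% interval lay within ±0.5 on the log2 scale for 31 of them. For Atg4c, Map1lc3a, Optn and Bnip3l it reached farther, the widest being Optn with −0.78 to 0.58. These intervals rest on a spread estimated over all 4 groups, stimulated libraries included. The groups did not overlap for 9 genes, 4 higher and 5 lower in KO, against 20% of all genes (10.6% higher and 9.42% lower).

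In stimulated cells 3 of the 35 autophagy genes differed between KO and WT, 2 higher (Optn and Bnip3l) and 1 lower (Calcoco1). This is 8.57% of the members, near the 9.3% of all genes called in this comparison (5.08% higher and 4.22% lower). The median log2 fold change of the 35 was −0.03, and the interval lay within ±0.5 for 30. The groups did not overlap for 8 genes, 4 in each direction, against 27.4% of all genes (14.3% higher and 13.1% lower). Some genes listed as markers of other cells and of CD8 T cells differed in this comparison too. Of the 7 CD8 T cell markers 4 were lower in stimulated KO (Cd3d, Cd3e, Cd3g and Cd8a), with a median log2 fold change of −0.31. Of the 14 dendritic cell markers 2 were higher (Batf3 and Zbtb46), while the summed level of the list overlapped between the genotypes. Which cells these 2 transcripts came from is not known in bulk samples. The part of these differences in the values of the autophagy genes was not tested.

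Calcoco1 encodes a receptor related to NDP52 that is known from human cells for the turnover of endoplasmic reticulum. It was at 19.6, 21.5 and 21.4 CPM in stimulated KO and 25.6, 27.1 and 30.3 CPM in stimulated WT. No KO library reached the lowest WT library, and the KO level was 75.3% of WT (log2 fold change −0.41, SE 0.08, edgeR adjusted p = 0.00462). This call held under all 12 alternatives (adjusted p 0.000115 to 0.0298). In fresh cells the level was 53.0, 47.4 and 51.4 CPM in KO and 56.2, 51.2 and 56.0 CPM in WT, and the ranges overlapped (log2 fold change −0.10, SE 0.07, edgeR adjusted p = 0.572). The difference between the states did not pass the test (log2 fold change −0.31, SE 0.11, edgeR adjusted p = 0.157).

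Optn encodes optineurin, a ubiquitin-binding receptor for mitochondria and bacteria. It was at 2.01, 3.61 and 1.81 CPM in stimulated KO and 1.65, 0.963 and 1.16 CPM in stimulated WT, on 20 to 69 counts per library. The KO libraries lay above the WT libraries by a narrow gap, with KO replicate 2 the highest (log2 fold change 0.96, SE 0.28, edgeR adjusted p = 0.0442). Without that library the log2 fold change was 0.61 (edgeR adjusted p = 0.178). The call was also lost without stimulated WT replicate 2 (0.80) or replicate 3 (0.90), with limma-voom and with only the compared groups in the fit, 5 of 12 alternatives in all. Over the 12 the adjusted p ran from 0.0276 to 0.178. In fresh cells Optn was at 0.987, 1.22 and 1.29 CPM in KO and 1.28, 1.07 and 1.47 CPM in WT, with overlap (log2 fold change −0.10, SE 0.32, edgeR adjusted p = 0.937). With stimulation Optn rose in KO (log2 fold change 1.05, SE 0.28, edgeR adjusted p = 0.00287), while in WT its 95% interval was −0.69 to 0.69.

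Bnip3l encodes NIX, a mitophagy receptor of the outer mitochondrial membrane. It was at 101, 171 and 94.3 CPM in stimulated KO and 93.6, 86.6 and 69.3 CPM in stimulated WT. KO replicate 2 was far above the others, and KO replicate 3 was only just above the highest WT library (log2 fold change 0.55, SE 0.17, edgeR adjusted p = 0.0492). Without KO replicate 2 the log2 fold change was 0.23 (edgeR adjusted p = 0.134). Leaving out stimulated WT replicate 2 (0.58) or replicate 3 (0.43) ended the call too, as did DESeq2 size factors, DESeq2, limma-voom and a fit of only the compared groups. The call was thus lost under 7 of 12 alternatives, and the adjusted p ran from 0.00858 to 0.212. Fresh cells held 145, 137 and 137 CPM in KO and 156, 164 and 155 CPM in WT, with KO lower in each library but no call (log2 fold change −0.18, SE 0.16, edgeR adjusted p = 0.677). Against its fresh level Bnip3l fell in WT (log2 fold change −0.93, SE 0.17, edgeR adjusted p = 8.27e-05) and was not called in KO (log2 fold change −0.20, SE 0.16, edgeR adjusted p = 0.257). Without stimulated KO replicate 2 it was called lower in KO too, at −0.51 (edgeR adjusted p = 8.5e-05). Its reads can be shared with the near-identical copy Bnip3l-ps.

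Bnip3, the paralog of Bnip3l and a target of hypoxia signalling, is outside the 36 and was highest in the same library. It was at 41.3, 94.3 and 44.1 CPM in stimulated KO and 29.0, 28.3 and 9.68 CPM in stimulated WT, and at 5.09, 4.03 and 4.22 CPM in fresh KO and 4.07, 3.97 and 5.06 CPM in fresh WT. Stimulated libraries were above all fresh ones, and stimulated KO above stimulated WT (log2 fold change 1.43, SE 0.33, edgeR adjusted p = 0.0142). Of the exon bases of Bnip3, 22.3% overlap a gene on the other strand. Without stimulated KO replicate 2 the Bnip3 difference was 0.95 and no longer called (edgeR adjusted p = 0.0637), nor was it called with only the compared groups in the fit (edgeR adjusted p = 0.0617), with 0.000791 to 0.0637 over 12 alternatives. Hif1a was at 409.8, 572 and 382 CPM in stimulated KO and 375, 385 and 359 CPM in stimulated WT, so KO replicate 2 was again the highest. The part of that library's state in the values of Bnip3l, Optn and Bnip3 was not tested beyond leaving it out.

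**Figure D4:**
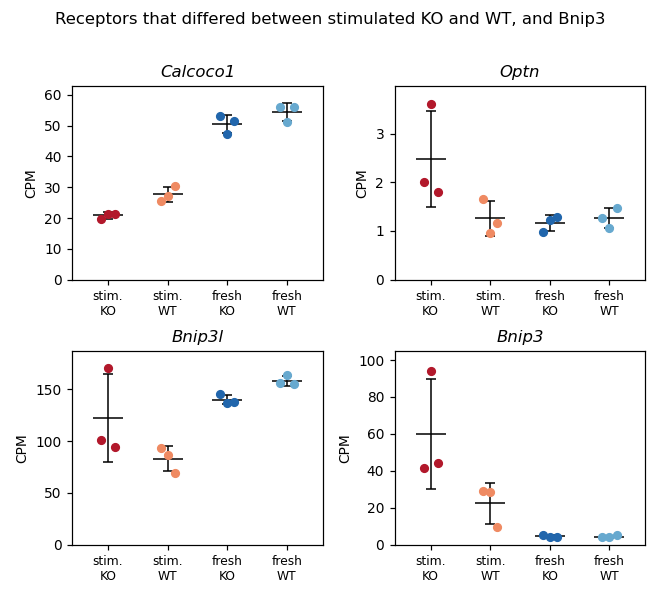
CPM (y axis, from 0) of the 3 receptor genes called between stimulated KO and stimulated WT, and of Bnip3, in the 4 groups. Points are libraries, and bars are the mean ± SD (n = 3); Calcoco1 is lower in all 3 stimulated KO libraries with little spread, whereas 1 stimulated KO library (replicate 2) stands highest for Optn, Bnip3l and Bnip3.

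Whether the effect of Otub1 loss differed between the states was tested as an interaction, which edgeR called for 0 of the 35 genes and for 2.26% of all genes (0.698% higher and 1.56% lower). At an unadjusted p under 0.05, for which the share of all genes was not counted, there were 5 higher and 2 lower. Whether this exceeds that share is not known. DESeq2 (no adjusted p for 2 members) and limma-voom called 0. The lowest adjusted p was that of Bnip3l (log2 fold change 0.73, SE 0.23, edgeR adjusted p = 0.118), followed by Atg2b (log2 fold change 0.18, SE 0.06, edgeR adjusted p = 0.124). Atg2b was at 94.5% of WT in fresh KO and at 107% of WT in stimulated KO, both without overlap and neither called. Atg9a was at 92.1% of WT in fresh KO, with overlap, and at 115% of WT in stimulated KO, without (log2 fold change 0.32, SE 0.12, edgeR adjusted p = 0.179). Among the ATG8 genes, Gabarap was lower in all 3 stimulated KO libraries than in the WT ones (log2 fold change −0.20, SE 0.07, edgeR adjusted p = 0.0833) and Map1lc3b was at 89.9% of WT there with overlap (log2 fold change −0.15, SE 0.06, edgeR adjusted p = 0.115), and neither was called.

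**Figure D5:**
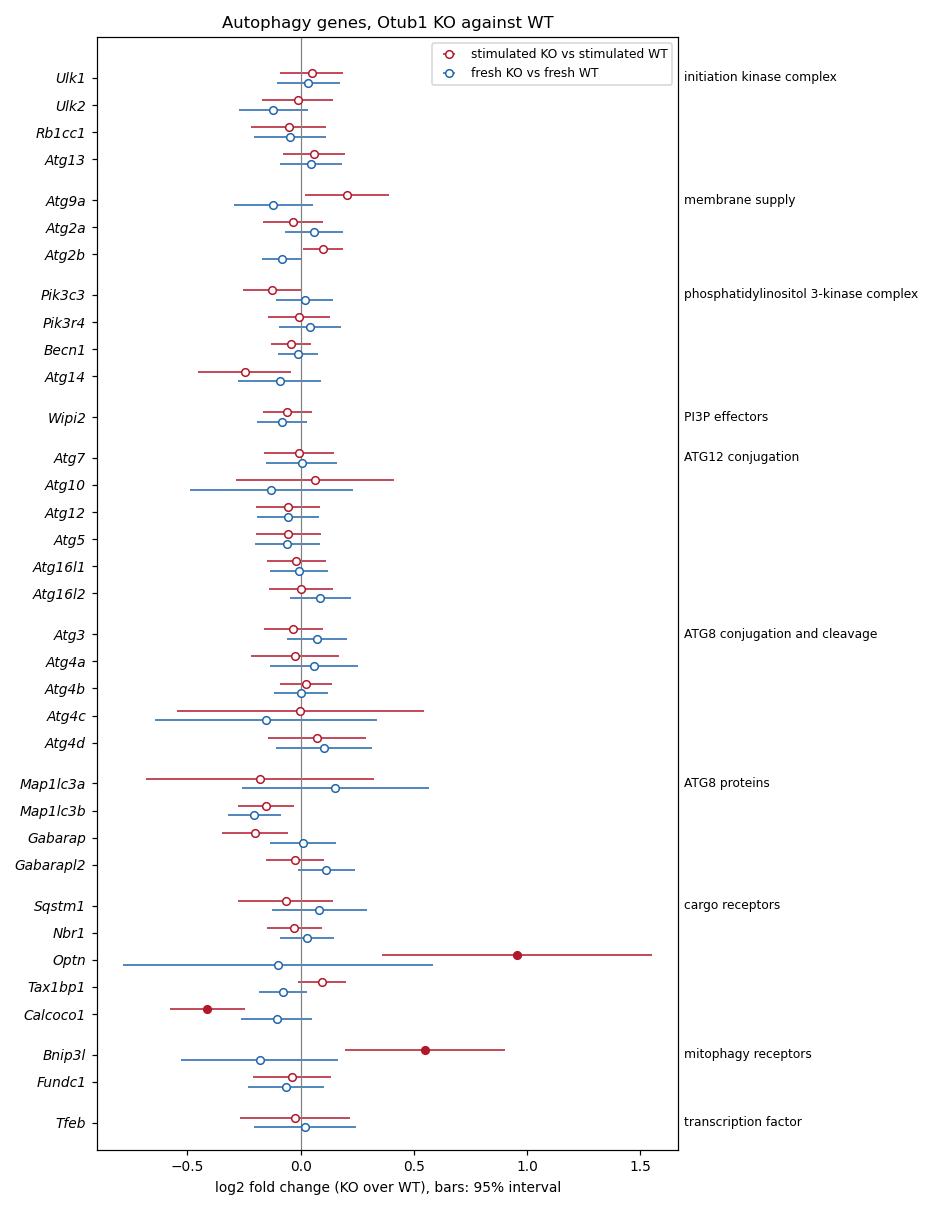
Log2 fold change (x axis) of 35 autophagy genes in KO over WT, stimulated (upper, red) and fresh (lower, blue), ordered by role. Bars are 95% intervals and filled points passed adjusted p under 0.05; the 3 filled points are Optn, Bnip3l and Calcoco1 in stimulated cells, and the fresh points lie between −0.20 and 0.15.

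Further lists of the pathway, 5 in all, were counted in the same fits, and their genes are not among the 36. With stimulation, 28 of the 98 genes tested on them rose and 54 fell in KO, and 29 rose and 50 fell in WT. The share called was 83.7% in KO and 80.6% in WT, near the 83.9% and 82.3% of all genes. Over all genes, 42.2% were lower and 41.7% higher in KO, and 41.4% were lower and 40.8% higher in WT. Of 24 further core genes, 6 rose and 12 fell with stimulation in KO, and 6 rose and 12 fell in WT. Vmp1 and Tmem41b, scramblases of the endoplasmic reticulum that act early in autophagosome formation, were among those that rose. Vmp1 was at 80.5 ± 4.39 CPM in stimulated KO and 37.9 ± 0.547 CPM in fresh KO, and at 92.3 ± 3.03 CPM in stimulated WT and 38.8 ± 1.83 CPM in fresh WT (mean ± SD, n = 3 each). Tmem41b was at 41.4 ± 1.80 CPM in stimulated KO and 15.6 ± 0.928 CPM in fresh KO, and at 40.1 ± 0.872 CPM in stimulated WT and 17.2 ± 1.90 CPM in fresh WT. Tecpr1, which encodes a tethering protein between autophagosomes and lysosomes, fell the most, to 38.6, 32.0 and 36.8 CPM in stimulated KO against 364, 372 and 344 CPM in fresh KO. In WT it was at 46.7, 49.9 and 54.0 CPM in stimulated and 341, 365 and 338 CPM in fresh libraries (KO log2 fold change −3.33, SE 0.07, edgeR adjusted p = 1.65e-15; WT log2 fold change −2.79, SE 0.07, edgeR adjusted p = 8.43e-15). Tecpr1 was lower in stimulated KO than in stimulated WT as well (log2 fold change −0.48, SE 0.07, edgeR adjusted p = 0.000712), and this KO effect differed from that in fresh cells (interaction log2 fold change −0.53, SE 0.09, edgeR adjusted p = 0.0102). That difference was not called once the libraries with Y-linked reads were left out (−0.51, edgeR adjusted p = 0.0606, against 1.42e-05 to 0.0606 over 17 alternatives).

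Of 15 further selective autophagy genes that passed the filter, 5 rose and 9 fell in KO and 4 rose and 8 fell in WT. Pink1, the kinase that marks damaged mitochondria, was at 17.6, 19.4 and 13.2 CPM in stimulated KO and 91.2, 69.4 and 80.1 CPM in fresh KO, and at 27.8, 25.5 and 21.4 CPM in stimulated WT and 85.9, 90.8 and 98.3 CPM in fresh WT. It was low in all stimulated libraries, and lower in stimulated KO than in stimulated WT (log2 fold change −0.57, SE 0.14, edgeR adjusted p = 0.0154), a call that was lost without stimulated KO replicate 3 (−0.43) or stimulated WT replicate 2 (−0.55; edgeR adjusted p 0.000443 to 0.0554 over 12 alternatives). Ccpg1, a receptor for the turnover of endoplasmic reticulum, fell with stimulation (log2 fold change −1.94 in KO and −1.81 in WT) and was slightly lower in stimulated KO than in stimulated WT (log2 fold change −0.20, SE 0.06, edgeR adjusted p = 0.0385), which 10 of 12 alternatives did not call, among them each fit with 1 replicate left out. Phb2, a prohibitin of the inner mitochondrial membrane, rose (1.47 in KO and 1.37 in WT).

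Of 25 lysosome genes, 4 rose and 17 fell in KO and 5 rose and 17 fell in WT, with median log2 fold changes of −0.74 and −0.71. Psap, the precursor of the saposins that help digest sphingolipids, was at 195, 180.3 and 185 CPM in stimulated KO and 776, 762 and 919 CPM in fresh KO, and at 193, 202 and 195 CPM in stimulated WT and 827, 899 and 955 CPM in fresh WT. Lipa, the lysosomal acid lipase, was at 20.6, 22.3 and 19.2 CPM in stimulated KO and 99.9, 93.4 and 100.3 CPM in fresh KO, and at 27.8, 22.1 and 27.8 CPM in stimulated WT and 106, 116 and 111 CPM in fresh WT. No stimulated library came near the fresh range for either gene. The summed level of the 25 was 1581 to 1594 CPM in stimulated KO and 1588 to 1647 CPM in stimulated WT, against 2961 to 3294 CPM in fresh KO and 3149 to 3382 CPM in fresh WT. The sums of myeloid markers (1.24 to 2.7 CPM in stimulated and 48.5 to 103 CPM in fresh libraries) and of dendritic cell markers moved the same way, and their part in this was not tested.

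Among 23 genes of nutrient and energy sensing, 8 rose and 10 fell in KO and 9 rose and 9 fell in WT. Sesn1 and Sesn2, sestrin genes whose products restrain mTORC1 when amino acids are short, moved apart. Sesn2 was at 74.0, 79.9 and 84.0 CPM in stimulated KO and 6.44, 8.55 and 8.77 CPM in fresh KO, and at 69.9, 95.8 and 94.4 CPM in stimulated WT and 7.23, 7.22 and 7.46 CPM in fresh WT. Sesn1 was at 22.3, 20.8 and 22.2 CPM in stimulated KO and 88.3, 87.1 and 87.0 CPM in fresh KO, and at 31.7, 24.0 and 28.6 CPM in stimulated WT and 98.6, 102 and 102 CPM in fresh WT. Sesn1 was thus at 24.9% of its fresh level in KO and 27.9% in WT, while every stimulated library lay far above the fresh range for Sesn2 (log2 fold change 3.32 in KO and 3.57 in WT). In stimulated KO against stimulated WT, the genes called on these 5 lists included Bnip3, which was higher, and Tecpr1, Vmp1, Pink1, Ccpg1, Lipa, Sesn1, Tsc1, Sesn3 and Zkscan3, which were lower. Of 98 genes tested on the lists 11.2% were called, near the 9.3% of all genes. Tecpr1, Sesn1 and Zkscan3 kept the call under all 12 alternatives, whereas Vmp1 and Tsc1 lost it under 5 of 12, Lipa under 6 and Sesn3 under 9. In fresh KO against fresh WT none of these 98 genes was called by edgeR, where 1.2% of all genes were. At an unadjusted p under 0.05, for which the share of all genes was not counted, 4 genes were higher and 7 lower. No excess over all genes can be read from these counts.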

How the data were processed

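RNA sequencing was performed on 12 samples in 4 groups, assigned from the source labels, with replicates numbered only to name them. For every sample the authors deposited a table of raw counts, whole numbers of reads per gene that had not been normalized. TopHat, TopHat2, HTSeq, DESeq2 and mm10 are named per the submitters' processing notes, with no version given. The annotation and strand setting of the counting were not given in the sources used here, so genes that overlap or have near-identical copies can share or lose reads. The 5 HTSeq summary lines of each file (5.22% to 6.43% of its total) were left out. No replicates were merged, since every pair differed beyond counting noise (chi-square 4.26 to 18.6 per degree of freedom).

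Genes were filtered with filterByExpr by group and scaled by TMM (factors 0.988 to 1.01). One edgeR 4.0.16 quasi-likelihood model in R 4.3.3 was fitted to the 4 groups, with 8 residual degrees of freedom, a two-sided test for each of 5 contrasts and Benjamini-Hochberg adjustment over 12759 genes. The edgeR steps after the filter were tested on data simulated for stimulated KO against stimulated WT alone. The other contrasts and the interaction were not simulated. Fold changes are stimulated over fresh and KO over WT, and the interaction is the KO effect in stimulated minus that in fresh cells. Positions, exon lengths and overlaps came from GENCODE on GRCm38 (the mm10 build), promoters from RefSeq. Near-identical copies were sought with blastn (identity of at least 95% over 200 bases).

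The 36 genes, the further lists and the alternatives were chosen with earlier results of these data known. All members are accounted for, and called members are named. Of each further list, up to 4 called genes per comparison with the largest change and an average log2 CPM of at least 2 could be named. Some genes of these lists are not reported here. Alternatives were DESeq2 size factors, no filter, DESeq2 1.42.0, limma-voom (limma 3.58.1), the compared groups alone, leaving out libraries with Y-linked reads above 1 CPM, and leaving out each replicate. Applying them to the called genes of the further lists was decided after seeing the data.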

Additional observations from a re-analysis of the deposited data

Results flagged for a closer look

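The KO effect differed between the states, by the interaction test of edgeR, for 288 of all 12759 genes tested (2.26%). Among the deleted gene and the 98 genes of the further lists it was called for 3, of which 2 are on the lists (2.04% of them). Otub1 itself, the deleted gene, had an interaction of −1.47 on the log2 scale (edgeR adjusted p = 0.00329), with a KO effect of −2.66 in stimulated and −1.19 in fresh cells. Tecpr1 had an interaction of −0.53 (edgeR adjusted p = 0.0102), with all 3 KO libraries below all 3 WT libraries in stimulated cells and overlap in fresh cells. Zkscan3, a repressor of autophagy and lysosome genes in human cells, had an interaction of −0.42 (edgeR adjusted p = 0.0132). It was at 51.2, 50.6 and 49.7 CPM in stimulated KO and 66.5, 62.7 and 61.6 CPM in stimulated WT, and at 69.7, 72.7 and 69.8 CPM in fresh KO and 71.1, 65.1 and 64.2 CPM in fresh WT. With the 3 libraries that held Y-linked reads left out, neither of the list interactions passed (Tecpr1 −0.51, edgeR adjusted p = 0.0606, against 1.42e-05 to 0.0606 over 17 alternatives; Zkscan3 −0.36, edgeR adjusted p = 0.0999, against 0.00027 to 0.0999). No explanation was tested for these differences.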

How the results depend on the processing

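The counts of autophagy genes lower after stimulation moved little over the alternatives, between 23 and 25 in KO and between 22 and 25 in WT, and 4 genes were higher in KO under each of them. Of 336 checks of single genes in KO, 335 kept the call (Atg4d lost it once), as did 317 of 336 in WT, where Atg2b, Atg4a, Atg4b, Atg4d, Sqstm1 and Wipi2 lost it in some. No direction was reversed in these checks. The 3 genes higher in stimulated WT than in fresh WT became 0 without the libraries with Y-linked reads and 1 to 3 with 1 replicate left out (1 without fresh WT replicate 3). The 2 genes higher in stimulated KO than in stimulated WT became 1 with DESeq2 size factors, 1 with DESeq2, 0 with limma-voom, 0 with only the compared groups in the fit and 0 to 3 with 1 replicate left out. The 1 gene lower there became 1 to 3 with 1 replicate left out, and Map1lc3b (−0.21, edgeR adjusted p = 0.0467), Gabarap (−0.26, edgeR adjusted p = 0.0305) and Sqstm1 (−0.22, edgeR adjusted p = 0.0217) joined Calcoco1 in single fits. With no filter on low counts Wipi1 was called higher in stimulated KO than in stimulated WT (2.40, edgeR adjusted p = 0.0325), on 0 to 19 counts per library. The interaction, with 0 genes in either direction, had 1 higher with no filter (Bnip3l, 0.72, edgeR adjusted p = 0.032), and 0 to 1 higher and 0 to 1 lower with 1 replicate left out. The cause of these moves was not tested. DESeq2 size factors moved the median log2 fold change of all genes by less than 0.1 in every comparison. Depth limits Optn, Atg4c, Map1lc3a and Wipi1, which had at most 85 counts per library. No paired analysis was possible because the labels give no replicate numbers that groups share.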
